A study of Mus musculus with 6 samples.

Results

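The promoter regions described here carried at least 1 full cAMP response element, the 8-base palindrome TGACGTCA, in chromatin that was accessible in splenic regulatory T cells (Tregs). Accessible chromatin was measured by ATAC-seq, in which a transposase cuts DNA that is free of nucleosomes. Peaks of the 2 genotypes that overlapped by at least 1 bp were joined into 104845 regions, of which 19586 lay within 1 kb of the start site of a protein-coding transcript, and 613 of these promoter regions held the full element (3.13%, Wilson 95% interval 2.89 to 3.38). They served 693 protein-coding genes, and 532 of the regions had 1 such gene and 81 had 2 or more.

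Tregs came from the spleens of CREBfl/fl mice, labelled WT, and of Foxp3creCREBfl/fl mice, labelled as a knockout, all C57BL/6 and 6 to 12 weeks old. Both groups carried the floxed CREB allele, and the Cre recombinase was expressed from the Foxp3 locus, so that deletion was directed to Foxp3-expressing cells. The labels listed 3 libraries per group and the study's methods a run in duplicate, whereas 1 peak list per group was analysed here, and how libraries were joined was not stated. Without replicate lists there was no test between the groups, and each ratio is given with a 95% interval that covers counting error only. Because cells were profiled together, a change of accessibility per cell and a change in the mix of cells cannot be told apart.

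CREB, encoded by Creb1, is a basic leucine zipper factor that binds the cAMP response element (CRE) as a dimer. Phosphorylation by protein kinase A and other kinases, and coactivators of the CRTC family, let it switch on genes after cAMP, calcium and T cell receptor signals. CREM, ATF1 and other leucine zipper proteins read the same palindrome, and the shorter half-site TGACG, which lies inside the palindrome, is bound more weakly. In T cells CREB is known for its part in early response genes, cytokine genes and the regulation of Foxp3.

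Some of the promoters are shown with their sequence, since the palindrome defines the set and its flanks vary. Each sequence is from GRCm38 and is written 5' to 3' on the strand of the gene, with the CRE in capitals and 20 bases on each side, or 100 bases on each side for Nr4a2. The first set holds the promoters with the lowest ratios.
Nr4a2 (chr2:57114978-57115185, minus strand): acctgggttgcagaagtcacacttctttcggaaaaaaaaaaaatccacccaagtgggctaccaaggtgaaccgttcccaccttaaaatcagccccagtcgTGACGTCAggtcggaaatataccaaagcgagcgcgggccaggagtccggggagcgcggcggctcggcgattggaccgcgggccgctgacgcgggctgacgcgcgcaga
Epop (chr11:97629785-97629832, minus strand): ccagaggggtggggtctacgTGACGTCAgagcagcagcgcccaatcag
Tbc1d31 (chr15:57912960-57913007, plus strand): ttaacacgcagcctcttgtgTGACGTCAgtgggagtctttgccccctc
Onecut3 (chr10:80494797-80494844, plus strand): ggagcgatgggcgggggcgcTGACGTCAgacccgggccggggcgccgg
Psmb8 (chr17:34197641-34197688, plus strand): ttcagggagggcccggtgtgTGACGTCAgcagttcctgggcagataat
The CRE centre was 44 bp upstream of the start site in Nr4a2, 107 bp upstream in Epop and 14 bp upstream in Onecut3, and 785 bp downstream, in an intron, in Tbc1d31. The Nr4a2 element also fell in an intron of a longer annotated transcript. The printed stretch of Nr4a2 held 2 further half-sites outside the CRE.

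The second set shows signalling, stress and T cell genes of which the ratios are given further on. In Ralgapa1 an adjacent pair of CREs is shown, of the 3 in the region.
Pde7a (chr3:19311393-19311440, minus strand): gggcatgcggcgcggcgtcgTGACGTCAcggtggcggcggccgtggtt
Pde7b (chr10:20725157-20725204, minus strand): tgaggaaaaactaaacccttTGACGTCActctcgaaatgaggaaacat
Ppp1r15a (chr7:45526253-45526300, minus strand): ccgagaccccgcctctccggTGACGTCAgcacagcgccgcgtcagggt
Areg (chr5:91139518-91139565, plus strand): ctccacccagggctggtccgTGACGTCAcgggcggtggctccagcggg
Gem (chr4:11704355-11704402, plus strand): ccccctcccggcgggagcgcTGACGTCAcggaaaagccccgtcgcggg
Bach2 (chr4:32238667-32238714, plus strand): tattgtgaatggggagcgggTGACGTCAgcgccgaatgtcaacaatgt
Zap70 (chr1:36761760-36761807, plus strand): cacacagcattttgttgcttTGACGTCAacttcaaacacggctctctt
Ralgapa1 (chr12:55821186-55821249, minus strand): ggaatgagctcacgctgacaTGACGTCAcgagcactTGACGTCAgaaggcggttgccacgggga
In each of these regions the CRE nearest a start site was at most 113 bp upstream of it, and within 50 bp of the summit of a peak.

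The third set shows promoters in which the same 8 bases stood in a region with a ratio near or above 0, so that the sequences can be read against those of the first set.
Ccna2 (chr3:36572024-36572071, minus strand): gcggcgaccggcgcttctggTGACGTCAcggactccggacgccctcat
Stat3 (chr11:100939798-100939845, minus strand): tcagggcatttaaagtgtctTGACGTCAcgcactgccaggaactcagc
Sik1 (chr17:31856016-31856063, minus strand): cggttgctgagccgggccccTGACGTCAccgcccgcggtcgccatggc
Csnk1d (chr11:120991304-120991351, minus strand): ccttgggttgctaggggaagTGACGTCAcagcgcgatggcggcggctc
Rcan1 (chr16:92400226-92400273, minus strand): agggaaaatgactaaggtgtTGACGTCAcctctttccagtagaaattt
Creb5 (chr6:53287238-53287285, plus strand): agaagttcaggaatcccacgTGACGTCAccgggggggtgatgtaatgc
The 8 capital bases were identical in all 19 sequences, and only the flanks differed. A match of the word is a description and not evidence of binding.

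The CREs clustered just upstream of start sites. The 613 regions held 653 CREs, with 581 regions holding 1 and 32 holding 2 or more. The median CRE centre was 26 bp upstream of the nearest start site (position -26), and 69.4% of CREs lay upstream. The centre was within 100 bp of a start site for 395 CREs (60.5%) and within 250 bp for 499 (76.4%). By annotation, 358 CREs (54.8%) lay outside protein-coding transcripts, 156 (23.9%) in exons and 139 (21.3%) in introns. In 11 regions every CRE was more than 1 kb from a start site although the region itself reached closer. The summit of a peak, the base with the most fragments, was also close, at a median of 34 bp from the CRE, and 382 CREs (58.5%) were within 50 bp of one.

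**Figure D1:**
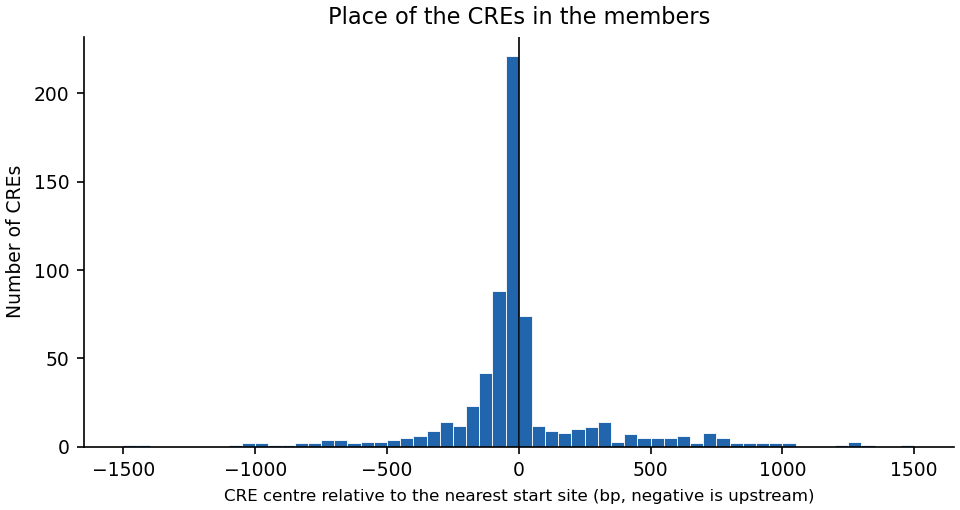
Number of CREs (vertical axis) by the distance of the CRE centre from the nearest protein-coding start site in bp (horizontal axis, negative upstream, bins of 50 bp). Most of the 653 CREs stand in the bins next to the start site, and 60.5% lie within 100 bp of it.

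The base before the palindrome was a G at 47.5% of the 2 ends of each CRE, against 33.2% in CREs of regions away from promoters, and a T at 7.50%. A G before together with a C after the palindrome, which extends it to 10 bases, was found at 151 CREs (23.1%) against 54 of 544 (9.93%) away from promoters. Other words were sought on both strands in a window of 300 bp centred on the summit, and none of these words lies inside the palindrome. The SP/KLF word GGGCGG was present in 65.3% of the members, 52.1% of promoter regions without a CRE and 17.3% of all regions. The NFY word CCAAT stood at 40.5%, 32.1% and 30.1%, and the ETS word CCGGAAG at 18.8%, 13.2% and 4.95%. The AP-1 word TGAGTCA had the opposite order, at 1.79%, 4.23% and 9.83%. Regions with start sites on both strands made up 12.4% of the members and 7.83% of the other promoter regions.

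These promoters were among the more accessible ones. Fragment pileup at the summit, the number of fragments that cover it, ranged from 24 to 1930 in CREBfl/fl and from 17 to 1332 in Foxp3creCREBfl/fl. The CREBfl/fl list had a genome background of 8.44 fragments and the Foxp3creCREBfl/fl list of 5.09, a difference in depth of 1.66 times. The median pileup of the members was therefore compared as multiples of that background, and was 90.1 in CREBfl/fl and 97.3 in Foxp3creCREBfl/fl. Promoter regions without a CRE had a median pileup of 290 and 230 fragments in the deeper and the shallower list, against 760.5 and 495 for the members. The members were also wider, with a median of 996 bp against 618 bp. Neither trait was particular to the full CRE, since a wide region is more likely to hold any given word. Promoter regions with the half-site and no full CRE had medians of 641 and 435 fragments and 946 bp. Those with TGAGCTCA, a shuffled form of the palindrome, and no full CRE had 545 and 364.5 fragments and 912.5 bp. The highest pileups were at Rfx1, a winged-helix factor that binds X-box promoters (1930 and 1332 fragments, CREBfl/fl first here and below), Opa3, a mitochondrial protein (1925 and 1280), Oxsr1, a stress-responsive kinase (1906 and 1262), Cep57, a centrosome protein (1844 and 1260), and Cyld, a deubiquitinase that restrains NF-kB signalling (1837 and 1236).

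Nearly all of the members were accessible in both genotypes. A peak was present in both lists at 601 regions (98.0%, Wilson 95% interval 96.6 to 98.9), against 86.0% of promoter regions without a CRE. A high share was not particular to the full CRE. Without a full CRE it was 97.0% of promoter regions with the half-site and 96.7% of those with TGAGCTCA. By width, it was 100% in the middle and wide classes, both for members and for promoter regions without a CRE. In the narrow class it was 94.2% of members (median 695 bp) and 79.0% of promoter regions without a CRE (median 286 bp). The CREBfl/fl list alone had a peak at 11 members, when 9.82% of all promoter regions and 15.8% of all regions were of this kind. The Foxp3creCREBfl/fl list alone had a peak at 1 member, when the shares were 3.78% and 5.96%. The 10 strongest of the 11 were Mrps30 (82 fragments), Clstn3 (65), Dnajc6 (39), Wasf2 (37), Mapk10 (33), Mypn (32), Gpr153 (32), Lrrtm2 (27), Izumo1 (27) and Uncx (25), with Dlx6 (24) as the last. Several of these genes act mainly in neurons, muscle, sperm or the embryo. The region of Foxp3creCREBfl/fl alone was at Amotl2 (21). All 12 were weak, the lowest pileups of any peak being 19 and 14 in the respective lists, and each had its CRE within 50 bp of its summit. Apart from Dlx6, for which no width is given here, these regions spanned 84 bp (Mrps30) to 230 bp (Dnajc6). A CRE inside so narrow a region cannot lie far from the summit.

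At the 601 regions with a peak in both lists, accessibility was compared as a relative log2 ratio, the pileup over the genome background in Foxp3creCREBfl/fl over that in CREBfl/fl. From each ratio the median over all 82009 regions with a peak in both lists (0.15) was subtracted, so that 0 stands for the typical region. The median of the members was -0.01 (95% interval -0.03 to -0.00) and that of promoter regions without a CRE 0.02, a difference of -0.03. Most members thus lay close to the typical region, and their 10th and 90th percentiles were -0.32 and 0.13.

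Relative to the typical region, more members departed to lower than to higher accessibility in Foxp3creCREBfl/fl. The interval of the ratio lay below 0 at 107 of 601 members (17.8%, Wilson 95% interval 14.95 to 21.1). The background share was 6.56% over all promoter regions and 7.89% over all regions compared, and 6.15% (5.79 to 6.53) over promoter regions without a CRE. The interval lay above 0 at 25 members (4.16%), where the background was 6.26% of promoter regions and 5.47% of all regions, and it included 0 at the other 469. This balance rested on the centring by 0.15, because without it 43 members were below 0 and 250 above. With the pileups of all summits of a region added, 64 were above 0. A relative log2 ratio of -0.5 or less was found at 33 members (5.49%) against 326 promoter regions without a CRE (2.003%), and one of 0.5 or more at 4 members.

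A stricter rule asked for at least a 2-fold difference and at least 5 standard deviations (SDs) of counting error. It called 3 members lower, Nr4a2, Epop and Tbc1d31 (0.499%), with a background of 0.142% of promoter regions and 0.121% of all regions compared. It called 0 members higher, with a background of 0.0355% and 0.0841%. In all, 24 promoter regions were lower by this rule, 3 of them members, and 19 of the 24 held at least the half-site.

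The choice of background mattered for the size of these counts. The deposited fold enrichment divides by a local background around the peak, and by it the interval lay below 0 at 56 members (9.32%) and at 3.73% of promoter regions without a CRE, and above 0 at 24 members (3.99%) and 3.32%. Ratios on this local scale were centred on their own median over all regions compared. Their intervals were taken from the genome scale and moved to the local ratio, so they hold no error of the local background. No member passed the 2-fold rule on that scale, on which it called 34 regions lower in the whole series. On both scales a larger share of the members than of the other promoter regions was below 0. The difference above 0 turned, since the members had the smaller share over the genome background (4.16% against 6.34%) and the larger one over the local background.

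**Figure D2:**
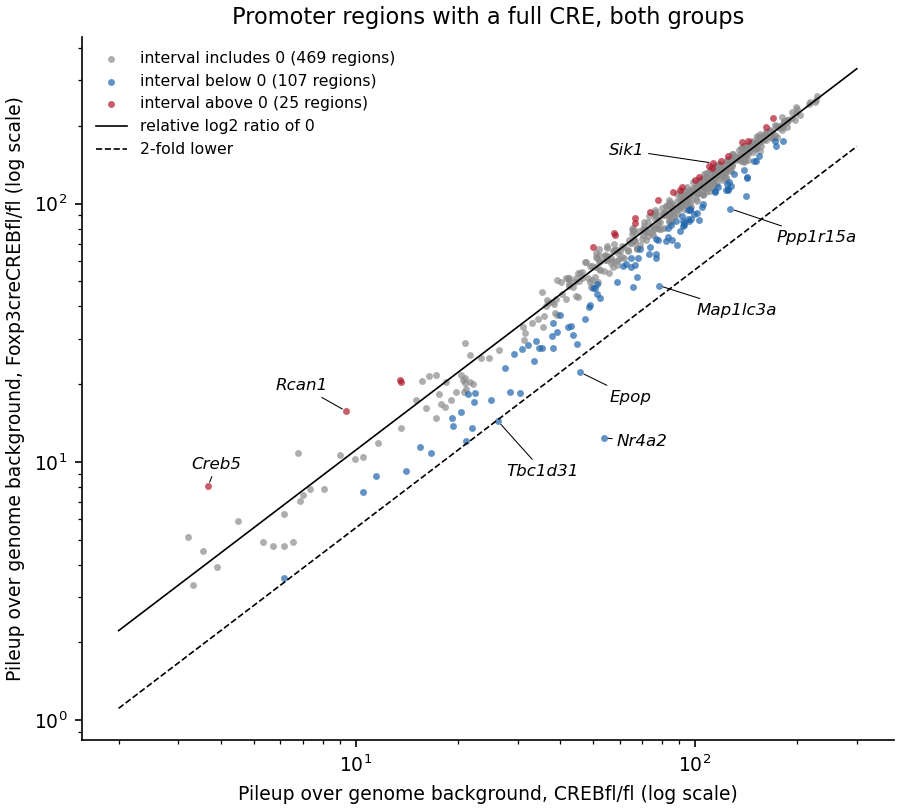
Pileup over the genome background in CREBfl/fl (horizontal axis) and in Foxp3creCREBfl/fl (vertical axis), both logarithmic, for the 601 members with a peak in both lists, 1 point each. The solid line marks a relative log2 ratio of 0 and the dashed line a 2-fold lower value, and 107 blue points with an interval below 0 outnumber 25 red points with an interval above 0, both counted after centring.

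The place of the CRE within the peak went with the ratio. With a CRE centre under 50 bp from a summit, 84 of 362 members had an interval below 0 (23.2%, Wilson 95% interval 19.2 to 27.8), with a median ratio of -0.04 (95% interval -0.06 to -0.02). With the CRE farther away the share was 23 of 239 (9.62%, 6.50 to 14.03) and the median 0.01, and these Wilson intervals did not overlap. By distance the shares were 10.5% at 50 to 100 bp, 12.3% at 100 to 250 bp and 7.14% at 250 bp or more. Of the 33 members at -0.5 or less, 31 had the CRE under 50 bp from a summit. The 3 members lower by the 2-fold rule were among them. With the local background the share was 13.3% under 50 bp, and 3.95%, 4.62% and 2.04% in the farther classes.

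The half-site behaved in the same way at a smaller share. Promoter regions that held TGACG and no full CRE (7188 regions, 37.9% of promoter regions without a CRE) had an interval below 0 at 14.3% when the half-site was under 50 bp from a summit. The share was 6.51% at 50 to 250 bp and 4.78% at 250 bp or more, and 4.12% in promoter regions without a half-site. Words of other factors near the summit of promoter regions without a CRE gave 5.76% for NFY, 6.35% for ETS, 5.68% for AP-1, 4.78% for SP/KLF and 2.85% for the NRF1 word GCATGCGC. Their shares above 0 ranged from 5.97% for ETS to 8.79% for AP-1, whereas the half-site had 3.91% and the full CRE 4.42%. The shuffled palindrome TAGCGCTA, which keeps the central CG, was rare among promoter regions (43 regions), and 6.98% of these were below 0. The shuffled palindrome without CG, TGAGCTCA, had 12.4% of 283 below 0, with a Wilson interval of 9.03 to 16.7, and 265 of these regions held no full CRE. Among the 265 the share was 12.5% under 50 bp from a summit, 10.7% at 50 to 250 bp and 13.3% at 250 bp or more.

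**Figure D3:**
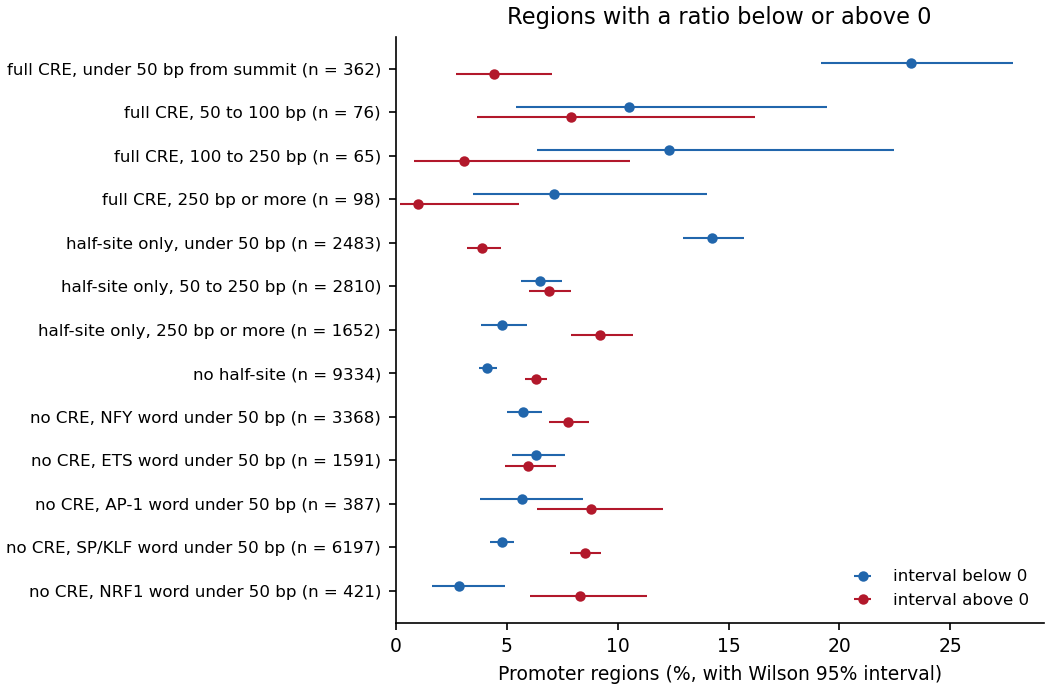
Share of promoter regions with an interval below 0 (blue) and above 0 (red) in percent, with Wilson 95% intervals, by the word a region holds and the distance of the word from the nearest summit. Among the classes plotted, the full CRE under 50 bp from a summit has the highest blue point (23.2%), followed by the half-site at the same distance (14.3%). The shuffled palindrome TGAGCTCA is not plotted and had 12.4% below 0 (9.03 to 16.7) at any distance.

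Weaker promoters departed more than strong ones. Among the 200 members with the lowest pileup in CREBfl/fl, up to 563 fragments, the median ratio was -0.11 and 52 (26.0%) had an interval below 0, against 5.53% of promoter regions without a CRE in the same range. Within this range the members had a median of 352 fragments in CREBfl/fl and the regions without a CRE 158. Fewer fragments give wider intervals, so these shares are not matched for pileup. The next 200 members, up to 958 fragments, had 34 (17.0%) against 7.53%, and the 201 strongest had 21 (10.4%) against 6.69%. Of the weakest members, those with the CRE under 50 bp from a summit had a share of 30.4% (45 of 148) and the others 13.5% (7 of 52). In the middle range these shares were 19.2% and 12.9%, and in the strongest 16.7% and 5.98%. The share was thus higher with the CRE near a summit in each range, but the Wilson intervals overlapped in each, and in the middle range the median ratio ran the other way (-0.012 near and -0.024 farther away).

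**Figure D4:**
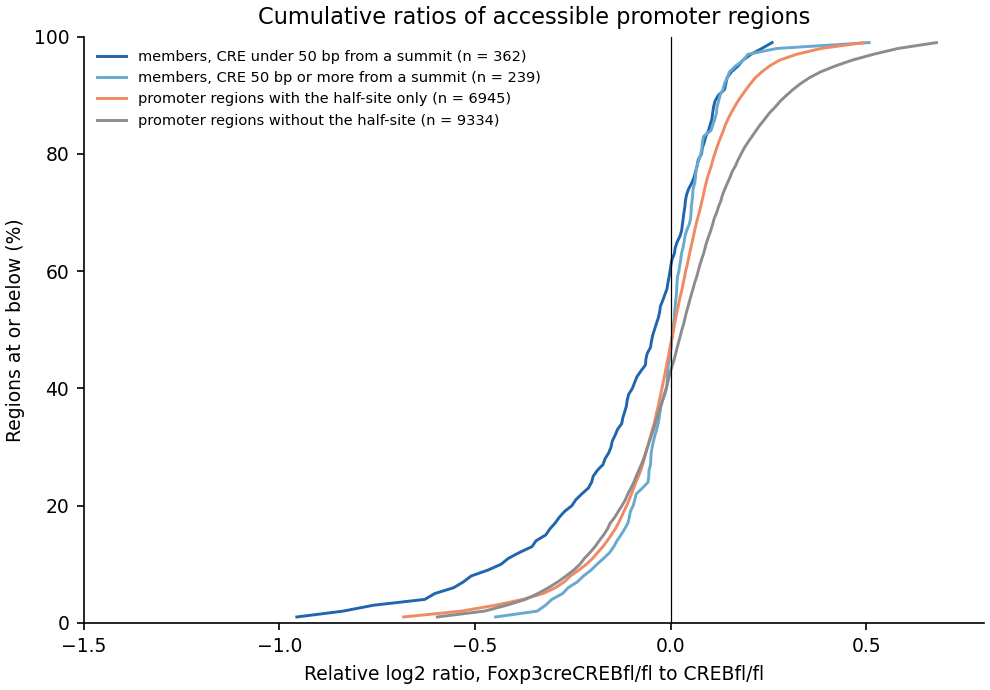
Cumulative share of regions (vertical axis, percent) at or below each relative log2 ratio (horizontal axis). Below 0 the curve of the 362 members with the CRE under 50 bp from a summit runs to the left of the other curves. There the curve of the 239 other members runs close to the promoter regions without a CRE. Above 0 it runs closer to that of the 362 members, with 90th percentiles of 0.13 and 0.12. These are 0.18 with the half-site only and 0.30 without the half-site.

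Most other features of the sequence went with smaller differences. A second CRE was accompanied by a share below 0 of 21.9% (7 of 32) against 17.6% with 1 CRE. Further half-sites outside the CRE gave 19.5%, 14.1% and 19.5% with none, 1 and 2 or more, and the flanking G and C gave 19.2% where both were present and 18.1% where neither was. Members without the SP/KLF word anywhere in the region had 27.2% (28 of 103) below 0 and those with it 15.9%, and their Wilson intervals, 19.5 to 36.5 and 12.9 to 19.3, did not overlap. A wide region is more likely to hold a word, and the share below 0 was 24.7% of narrow and 13.7% of wide members. The part of width in this difference was not tested. CREs within 100 bp of a start site gave 20.6% and those at 100 to 250 bp 12.8%, with overlapping intervals. A TATAA word 15 to 40 bp upstream of a start site was found in 13 members, Epop, Areg and Gem among them, and 3 of the 13 were below 0.

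Nr4a2, an orphan nuclear receptor made as an early response to T cell receptor and cAMP signals, had the lowest ratio of all members. Its region, chr2:57114422-57115453, had 455 fragments in CREBfl/fl and 63 in Foxp3creCREBfl/fl. The relative log2 ratio was -2.27 (95% interval -2.68 to -1.89), or 4.83-fold lower. The local background around the peak also differed, with 46.6 fragments against 11.7. On the local scale the fold enrichment was 9.58 against 5.06, and the ratio after centring was -0.97 (-1.37 to -0.59). The summit pileup and the local background were thus both lower in Foxp3creCREBfl/fl, beyond the difference in depth. The local background can include fragments of the peak itself, so the surroundings alone were not measured.

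Epop, a protein that joins Polycomb repressive complex 2 to elongin, followed with 388 and 113 fragments at chr11:97629288-97629983 and a ratio of -1.20 (-1.51 to -0.89). Tbc1d31, a TBC-domain protein of the centrosome, had 222 and 73 fragments at chr15:57912762-57913109 and a ratio of -1.02 (-1.43 to -0.64). Its region lay more than 500 bp from the start site, at the outer edge of the promoter definition. On the local scale these ratios were -0.80 and -0.90, so neither came to 2-fold there.

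The next members in the order were below 0 without passing the 2-fold rule. Brackets after a pair of pileups hold the relative log2 ratio and then its 95% interval. Onecut3, a homeodomain factor, had 178 and 61 fragments (-0.96, -1.41 to -0.54), and Mycbpap 52 and 18 (-0.95, -1.81 to -0.15). Map1lc3a, an LC3 protein of the autophagosome membrane, held 4 CREs and had 661 and 245 fragments (-0.85, -1.07 to -0.64). It was the strongest of the 10 lowest members, but its ratio was only -0.29 (-0.50 to -0.07) over the local background. Cdc14b, a phosphatase of the cell cycle, had 186 and 69 fragments (-0.85, -1.27 to -0.44). Psmb8, a catalytic subunit of the immunoproteasome, had 378 and 146 (-0.79, -1.08 to -0.51), and Dctn1, the large dynactin subunit that links dynein to cargo, 141 and 55 (-0.78, -1.25 to -0.32). In all 10 lowest members the CRE centre was under 50 bp from a summit.

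Genes of cAMP breakdown stood among the members below 0. Of 37 genes of the cAMP and protein kinase A pathway with an accessible promoter, 3 were members, and 2 of these were the phosphodiesterases of family 7, which hydrolyse cAMP. Pde7a had 571 and 265 fragments (-0.53, -0.74 to -0.31) and Pde7b 131 and 58 (-0.59, -1.07 to -0.14), and both remained below 0 over the local background, at -0.31 and -0.47. Without centring the interval of Pde7a was still below 0 (-0.59 to -0.16), but that of Pde7b included 0 (-0.92 to 0.01). Prkar1a, the regulatory subunit that holds protein kinase A inactive, had 837 and 570 fragments and a ratio of 0.03 (-0.13 to 0.18). The 57 promoter regions of the pathway without a CRE had a median of -0.05, with 4 below 0 and 1 above.

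CREB family genes and their regulators gave ratios on both sides of 0. Of 25 such genes, Crem, Creb5 and Sik1 were members, with 4 regions. Crem, which encodes activators and the repressor ICER, had a pair of member regions, with 496 and 253 fragments (-0.39, -0.61 to -0.17) and 781 and 435 fragments (-0.26, -0.44 to -0.09). Over the local background these ratios were 0.03 and 0.15 with intervals that included 0, so their direction depended on the scale. Sik1, a kinase that keeps CRTC coactivators in the cytoplasm, had 955 and 730 fragments and was above 0 (0.19, 0.05 to 0.33), and also over the local background (0.46, 0.32 to 0.60). Creb5, another leucine zipper factor of the family, had 31 and 41 fragments (0.98, 0.28 to 1.71), the highest ratio of the members, but over the local background its interval included 0 (-0.05 to 1.38).

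Creb1 itself had accessible promoter regions without a full CRE, so it was not a member. The higher of them had 1065 and 757 fragments and a ratio of 0.09 (-0.05 to 0.22). Peaks at a promoter do not show whether a floxed exon was deleted, so the deletion could not be checked in these lists.

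Genes known as CREB targets held the element more often than others. Of 37 classical target genes with an accessible promoter, 11 were genes of members (29.7%, Wilson 95% interval 17.5 to 45.8), against 693 of 13184 genes in all (5.26%, 4.89 to 5.65). Since the list was drawn from genes known for CREB control, this is no independent evidence. Its 12 member regions had a median of -0.12, with 5 below 0 and 1 above, and its 65 promoter regions without a CRE a median of -0.08, with 14 below and 2 above.

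The early response genes among them split. Areg, which encodes the epidermal growth factor receptor ligand amphiregulin, had 356 and 169 fragments (-0.49, -0.77 to -0.23), and -0.29 (-0.56 to -0.02) over the local background. Gem, a small GTPase that inhibits calcium channels, had 528 and 298 (-0.24, -0.45 to -0.04), a call that was lost over the local background (-0.07). Dusp1, a phosphatase of MAP kinases, had 897 and 660 fragments (0.14, -0.01 to 0.28), while over the local background its interval lay above 0 (0.24, 0.09 to 0.38). Of these 3, Areg was thus below 0 on both scales. Btg2, an antiproliferative gene, had 1004 and 683 (0.02, -0.12 to 0.17) and Ier2 971 and 662 (0.03, -0.12 to 0.17). Ccna2, cyclin A2, had 1132 and 756 (-0.00, -0.14 to 0.13), a narrow interval around 0 at a strong promoter. Vgf, a secreted neuropeptide precursor, had 299 and 231 fragments (0.21, -0.05 to 0.46), and Ppargc1a, a coactivator of mitochondrial genes, 52 and 24 (-0.53, -1.30 to 0.19), a promoter too weak to place on either side of 0.

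**Figure D5:**
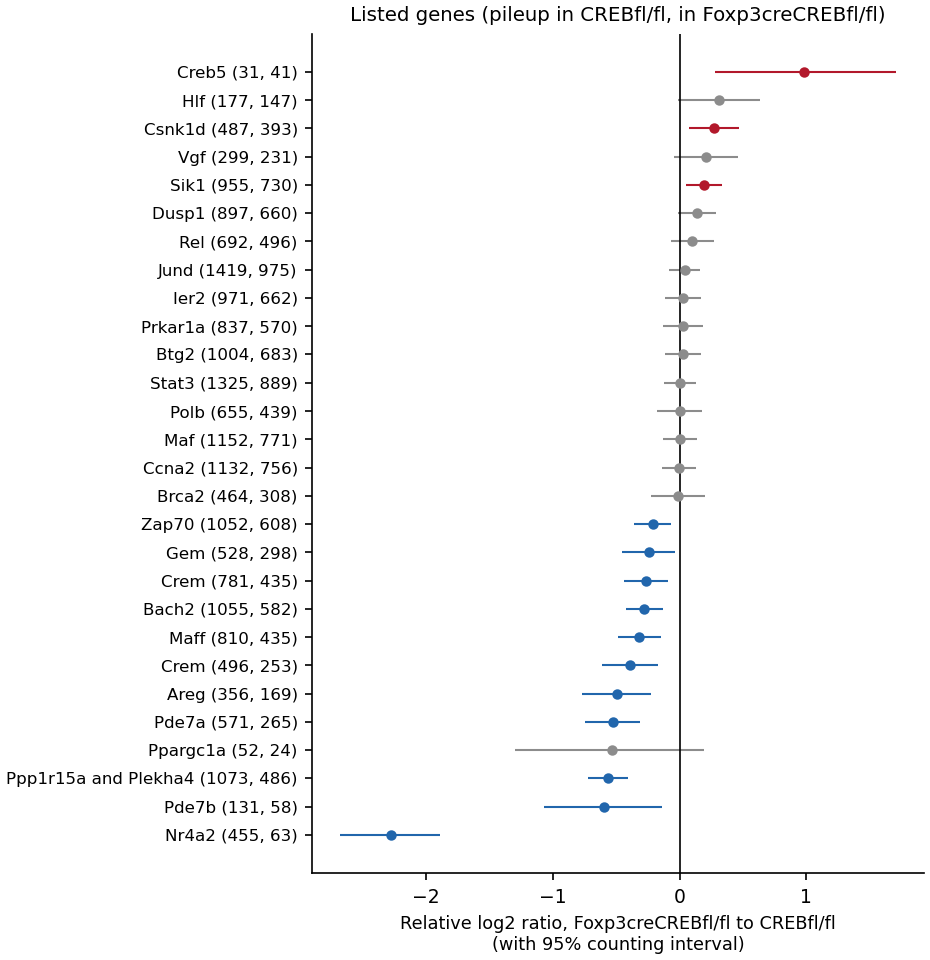
Relative log2 ratio with its 95% counting interval (horizontal axis) for the 28 member regions of the listed genes, with the pileup in CREBfl/fl and in Foxp3creCREBfl/fl beside each name. 11 intervals lie below 0 (blue), 3 above (red) and 14 include 0 (grey), and Nr4a2 stands apart at -2.27.

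Of 100 Treg and T cell genes with an accessible promoter, 5 were members (5.00%), close to the 5.26% of all genes. Bach2, a leucine zipper repressor that restrains effector differentiation of Tregs, had 1055 and 582 fragments (-0.28, -0.43 to -0.13). Over the local background its ratio was 0.01, so the direction rested on the scale. Zap70, the kinase that is recruited to the T cell receptor, had 1052 and 608 (-0.21, -0.36 to -0.06), and stayed below 0 over the local background (-0.23, -0.38 to -0.09). Without centring, however, the interval of Zap70 included 0 (-0.21 to 0.09). Maf with 1152 and 771 fragments (0.00, -0.13 to 0.13), Stat3 with 1325 and 889 (0.00, -0.12 to 0.13) and Rel, the NF-kB subunit c-Rel, with 692 and 496 (0.10, -0.07 to 0.27) had intervals that included 0. The 198 promoter regions of this list without a CRE had a median of -0.07, with 32 below 0 and 15 above.

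Maff, a small Maf leucine zipper factor, had 810 and 435 fragments (-0.32, -0.49 to -0.15) and -0.04 over the local background, where the call was lost. Jund, a subunit of AP-1, had 1419 and 975 (0.04, -0.08 to 0.16). With Nr4a2 they were the 3 members among 22 nuclear receptor and AP-1 genes, and the 41 promoter regions of that list without a CRE had a median of -0.10, with 12 below 0 and 0 above. Ppp1r15a, the subunit that directs protein phosphatase 1 to eIF2alpha and ends the stress response of translation, was the only member among 39 genes of the unfolded protein response and secretory pathway. Its region, shared with Plekha4, had 1073 and 486 fragments (-0.56, -0.72 to -0.41), the lowest ratio among the members with over 1000 fragments in CREBfl/fl. Over the local background, which was 87.5 and 39.1 fragments, the ratio was -0.05 (-0.20 to 0.11), and with the pileups of all its summits added it was 0.10.

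The clock list held 2 members among 21 genes. Csnk1d, the casein kinase that phosphorylates period proteins, had 487 and 393 fragments (0.27, 0.08 to 0.47) and stayed above 0 over the local background (0.21). Hlf, an output factor of the clock, had 177 and 147 (0.31, -0.01 to 0.64). The DNA repair and cell cycle list held 3 members among 50 genes, with intervals that included 0 in each case. These were Brca2 (464 and 308 fragments, -0.01, -0.22 to 0.20), Polb (655 and 439, 0.00, -0.17 to 0.18) and Ccna2.

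Among the other members above 0 were genes of several unrelated roles. Rcan1, an inhibitor of calcineurin, had 79 and 80 fragments (0.60, 0.13 to 1.07), and 0.54 (0.07 to 1.00) over the local background. Rundc3a had 114 and 106 (0.48, 0.08 to 0.87) and Ociad1 115 and 104 (0.44, 0.04 to 0.83). These 3 promoters were weak, and their intervals wide. Eef2, the translation elongation factor, had 422 and 345 (0.29, 0.08 to 0.50), Zfp938 656 and 527 (0.26, 0.10 to 0.43) and Map3k13, a kinase of the JNK pathway, 563 and 448 (0.25, 0.07 to 0.43). Golph3, a Golgi protein, had 490 and 386 (0.24, 0.04 to 0.43) and Plk4, the kinase that starts centriole duplication, 729 and 565 (0.21, 0.05 to 0.37). Beside Rcan1, Zfp938 alone of these had an interval above 0 over the local background (0.24, 0.07 to 0.41).

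By function, full CREs were spread widely over housekeeping genes, of which 24 families were counted. Zinc finger genes of the Zfp, Zbtb, Zkscan and Zscan series were the largest family, with 32 of 386 genes (8.29%, Wilson 95% interval 5.93 to 11.5), and 7 of their regions had an interval below 0 and 3 above. Phosphatases and MAP kinases followed with 14 of 161 (8.70%), of which 4 regions were below 0 and 1 above. RNA helicases had 6 of 51 (11.8%), nuclear pore and transport proteins 6 of 55 (10.9%), autophagy proteins 3 of 28 (10.7%) and cytosolic ribosomal proteins 8 of 92 (8.70%). The 5.26% of all genes lay within the intervals of these smaller families except the RNA helicases (5.51 to 23.4). Solute carriers outside the mitochondrial family were at the other end, with 2 of 189 (1.06%, 0.29 to 3.78), and vesicle traffic (10 of 269, 3.72%) and ubiquitin enzymes and ligases (13 of 296, 4.39%) were also under the share of all genes.

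Within families the ratios were mostly small. In the nuclear pore family 3 of 6 regions were below 0, against 17.8% of all members, 6.56% of promoter regions and 4 of the 67 promoter regions of the family without a CRE. Among the 3 were Ranbp1, a regulator of the GTPase Ran, with 1176 and 685 fragments (-0.20, -0.34 to -0.06), and Nup98, a pore protein, with 1449 and 887 (-0.13, -0.25 to -0.01). The ratio of Nup98 was 0.05 over the local background and 0.02 without centring, so that its direction was not stable. Atp5d, a subunit of ATP synthase, had 1199 and 647 fragments (-0.31, -0.45 to -0.17) and was 1 of 2 below 0 among 7 respiratory chain members. Gtpbp6, a GTPase of the translation list, had 694 and 365 (-0.35, -0.53 to -0.16). The centrosome, cilium and microtubule family (13 regions) and the chromatin regulators (6) had 0 intervals below 0 and 0 above. The first of these families also took in genes of the Ccdc series, such as Ccdc130 and Ccdc86. Mcm5, a subunit of the replicative helicase, had 1160 and 879 fragments (0.18, 0.05 to 0.31), and its interval included 0 over the local background.

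Further genes with an interval below 0 are given as examples chosen after their values were seen. Arg2, the arginase of mitochondria, had 284 and 125 fragments (-0.60, -0.92 to -0.30) and Sstr2, a somatostatin receptor coupled to the inhibition of cAMP, 119 and 47 (-0.76, -1.28 to -0.26). Tgif2, a repressor of TGF-beta responses, had 554 and 242 (-0.61, -0.84 to -0.39), and Rhoh, a GTPase needed for T cell receptor signalling, 189 and 87 (-0.54, -0.92 to -0.17). All 4 had the CRE under 50 bp from a summit. H2-Aa, a class II molecule of antigen-presenting cells, had 646 and 313 (-0.46, -0.66 to -0.27). Beside the lists above, Becn1, a core autophagy protein, had 548 and 314 (-0.22, -0.43 to -0.02), Birc2, a ubiquitin ligase of NF-kB signalling, 1080 and 593 (-0.28, -0.43 to -0.14) and Braf 517 and 292 (-0.24, -0.46 to -0.03).

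The most CREs stood at Csf2ra, with 7 in 1814 bp, ahead of Map1lc3a with 4 and Ralgapa1 with 3. Csf2ra, a subunit of the GM-CSF receptor, had 818 and 512 fragments (-0.10, -0.26 to 0.07), and its region near the end of chromosome 19 may share reads with near-copies, so its values are uncertain. Ralgapa1, a subunit of the GTPase-activating complex for Ral, had 815 and 485 fragments (-0.17, -0.33 to -0.00), and its interval included 0 over the local background.

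The rule that made a region a member had a threshold of 1 kb. The 22 members whose region lay over 500 and up to 1000 bp from a start site had ratios from -1.02 to 0.44 at the 19 compared, with a median of 0.03 and 3 intervals below 0. The 18 regions with a CRE just outside, over 1000 and up to 1500 bp away, ranged from -0.75 to 0.35 at the 15 compared, with a median of -0.11 and 6 below 0. The median was thus lower just outside the threshold than just inside it. It was -0.13 for members whose region lay 1 to 500 bp from a start site and -0.27 for the 7 regions with a CRE in the next 500 bp farther out, so the medians did not run evenly with distance. CREs away from promoters had a larger share of intervals on either side of 0 than the members. Of 471 such regions compared, 123 (26.1%) had an interval below 0 and 37 (7.86%) above, with a median of -0.11. By the 2-fold rule 0 of them were lower and 3 higher, against 3 members lower and 0 higher.

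The labelled cell type was checked at promoters. All 6 Treg and T cell markers had an accessible promoter in both lists, among them Foxp3 (166 and 125 fragments), Il2ra (683 and 410) and Ctla4 (922 and 506). Of 15 markers of B cells, myeloid cells, CD8 and NK cells and erythroid cells, 8 had no promoter region, among them Pax5, Cd79a, Lyz2, Csf1r, Cd8a, Ncr1 and Hba-a1. The other 7 summed to 135 times the background in CREBfl/fl and 145 in Foxp3creCREBfl/fl, with Klf1 as the highest (564 and 383 fragments). By type the sums were 3.08 and 7.47 for B cells, 23.8 and 22.6 for myeloid cells, 25.58 and 24.96 for CD8 and NK cells and 82.1 and 89.8 for erythroid cells. The part of other cells in the ratios of the members was not tested.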

How the data were processed

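ATAC-seq of splenic Tregs gave 2 peak lists, 1 per genotype, with 100771 and 94499 peaks. Per the submitters' processing notes and the study's methods, the authors trimmed 75-bp paired reads with Trim Galore, aligned them with Bowtie2 to mm9, filtered with SAMtools and called peaks with MACS2 with summits (versions not given in the sources used here). The methods name a setting without local background, whereas the fold columns vary in background from peak to peak. The coordinates were taken as GRCm38: 0 peaks passed a chromosome end of that build, and 59.1% and 58.6% of 41198 protein-coding start sites (GENCODE vM21 basic) had a peak within 1 kb, against 13.3% and 12.3% after a shift of 100 kb. The deposited columns are a score, a fold enrichment (ratio over the background), the -log10 p-value, the -log10 q-value and the summit offset.

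Pileup was recovered as the whole number that gave both the deposited fold and -log10 p-value within 0.002, for 99.9% of the peaks of either list, and divided by the genome background of its list. The highest summit of a group stood for a region. Log2 ratios were centred on the median of all regions compared, with conditional binomial 95% intervals that cover counting error only, since reads are not independent molecules and samples were not replicated here. The steps were tested on simulated data. 8 gene lists and 24 families were used. Named were members of the lists, the 10 lowest and 10 highest ratios with intervals that excluded 0, the 10 highest pileups in CREBfl/fl, up to 10 peaks of either group alone, the 5 members with most CREs and the 3 highest pileups of each family with 5 or more member genes, of which some are given by counts and a few items are not reported here. Members and lists were chosen with earlier results of these data known. The classes by distance of a word from the summit, their crossing with pileup, and the classes on the local scale were chosen after seeing the data. Alternatives changed the peak threshold, overlap, window, place of the CRE, centring, background, summit choice and chromosomes. Tools were Python 3.11.15, numpy 2.4.6, pandas 2.3.3, scipy 1.17.1, pysam 0.24.0, samtools 1.23.1 and matplotlib 3.10.9.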

Additional observations from a re-analysis of the deposited data

How the results depend on the processing

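No paired analysis was possible because 1 peak list per group was analysed, and no replicate could be left out for the same reason. Under 10 alternatives the set held 450 to 613 members, the share accessible in both groups was 97.3% to 98.5% apart from 95.3% when a reciprocal overlap was asked for, and the count higher by the 2-fold rule was 0 in each. The median ratio ranged from -0.03 to -0.01 and was 0.14 without centring. The difference from promoter regions without a CRE ranged from -0.05 to -0.03 and was -0.014 over the local background. The count lower by the 2-fold rule was 2 to 4, and 0 over the local background. The count with an interval below 0 was 92 to 117, but 43 without centring and 56 over the local background. The count above 0 was 20 to 26, but 15 when centred on promoter regions without a CRE, 250 without centring and 64 with summed pileups. The shift that centring removes is 0.15.

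Of 104 named members compared, the interval kept its side (below 0, above 0 or including 0) at 82 over the local background. The same held at 102 with the other centring, 43 without centring and 88 with summed pileups. Among members whose interval excluded 0, directions turned at Ppp1r15a with summed pileups (0.10), at both Crem regions (0.030 and 0.15) and Bach2 (0.0057) over the local background, and at Nup98 without centring (0.023) and over the local background (0.052). Members whose interval included 0 could also change sign, as Oxsr1 and Zscan20 did without centring. Such a member counted as kept where its interval still included 0. An example was Blm, with a ratio of -0.05 that became 0.06 over the local background. The cause was not tested. Depth limits weak promoters most: a pileup near the lowest listed, 19 and 14 fragments, gives intervals too wide to reach the 2-fold rule, and a region listed for 1 group may hold fragments under the threshold of the other.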

Other observations

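Members with start sites on both strands, which serve a divergent gene pair, had an interval below 0 at 11 of 76 (14.5%), and those with start sites on 1 strand at 96 of 525 (18.3%), with overlapping Wilson intervals. Members with the AP-1 word anywhere in the region had a median ratio of 0.03, with 7 of 59 below 0 (11.9%) and 5 above, and those without it a median of -0.02, with 100 of 542 below (18.5%). Members with the ETS word had 23 of 178 below 0 (12.9%) and those without it 84 of 423 (19.9%).

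Mitochondrial carriers of the Slc25 series had 4 members among 62 genes, of which 2 had an interval below 0. These were Slc25a36, with 1054 and 577 fragments (-0.29), and Slc25a25, with 428 and 240 (-0.25), both named after their values were seen. Histone genes had 6 of 70 genes in 3 member regions, all with intervals that included 0.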
